A study of Homo sapiens with 4 samples.

Results

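The genes examined were 10 genes of the mitochondrial inner membrane: the prohibitins PHB1 and PHB2, the scaffold gene STOML2, the protease genes YME1L1, OMA1, AFG3L2, SPG7 and PARL, the fusion gene OPA1 and the cristae gene CHCHD3. They were found among 60658 Ensembl gene identifiers by symbol, and all 10 matched 1 identifier each. The set was selected on the low PHB2 values after TMEM161A siRNA in both cell lines, and the other genes were added for their known ties to PHB2. The PHB2 values are therefore a description and support nothing by themselves. RNA sequencing had been done on HT29 and LIM1215, established human colorectal cancer cell lines, with 1 library from cells given a negative control siRNA (NC) and 1 from cells given an siRNA against TMEM161A (si2) in each line. An siRNA is a short RNA duplex that directs the breakdown of matching mRNA. The 4 groups thus held 1 library each, with no replicates within a line, and the other line was the only repeat of each comparison. No test was made, since a fit of siRNA and line over the 4 libraries leaves 1 residual degree of freedom and uses the contrast that selected the set. The siRNA sequence, its dose and the time after transfection are not given in the sources used here.

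Prohibitins are membrane proteins of the SPFH family. PHB1 and PHB2 assemble as alternating subunits into a large ring in the inner mitochondrial membrane, and each is known to need the other for its stability as a protein. The ring holds the m-AAA protease, made of AFG3L2 alone or of AFG3L2 with SPG7 (paraplegin), and limits the cleavage of OPA1, the GTPase that fuses inner membranes. In cells without prohibitins, the protease OMA1 is known to cut the long forms of OPA1, and cristae are lost. PHB2 also serves as a receptor for the removal of damaged mitochondria.

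The values are FPKM, fragments scaled to gene length and library size, so genes can be compared with each other per unit of length. By an estimate from the steps of low values, 18.11 to 21.56 fragments per kilobase made up an FPKM of 1, depending on the library, so the least covered value among the 10 genes, OMA1 with si2 in LIM1215, rested on about 787 fragments. Counting intervals (95%, exact Clopper-Pearson method on these estimates) cover counting error only and not the spread between cultures. They also assume 1 canonical transcript length per gene, and would be wider where shorter transcripts made up the FPKM. TMEM161A, the targeted gene, was at 10.9% of control in HT29 and at 19.4% in LIM1215, which matched the labels. Of 8 colon epithelium markers, all had an FPKM of at least 1 in both LIM1215 libraries and 5 had it in both HT29 libraries, where CDX1 was listed at 0, VIL1 was at 0.0397 or less and KRT20 was at 0.815 or less. The other 5 were expressed in HT29, NC first: CDX2 (8.29 and 8.04), EPCAM (168 and 154), CDH1 (48.0 and 41.6), KRT8 (1467 and 1624) and KRT18 (736 and 861). CDX1, VIL1 and KRT20, 3 of the 8 markers of the labelled tissue, were thus at or near 0 in both libraries labelled HT29. This puts the identity of that line in question. The identity was not tested, and HT29 here names the libraries by their label. Of 3 leukocyte markers, PTPRC and CD3E were at 0 in all 4 libraries, while CD68, a lysosomal protein gene, had an FPKM of 6.22 and 9.82 in HT29 and of 58.1 and 72.2 in LIM1215. Of 3 fibroblast markers only COL1A1 reached an FPKM of 1, with 16.0 to 17.6 in HT29 and 4.83 to 8.56 in LIM1215, and the summed FPKM of 3 endothelium markers was at most 0.601.

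The start of PHB2 is shown first, because it faces the start of a gene that was not lower with si2. PHB2 (ENSG00000215021; chromosome 12, 6965327 to 6970780, minus strand, GRCh38) has 10 exons in its canonical GENCODE transcript. EMG1, a ribosome biogenesis gene, starts 132 bases away and is read in the opposite direction. The whole stretch between both genes, chr12:6970781-6970912 on the minus strand, runs from the EMG1 start to the PHB2 start. The PHB1 sequence is the 250 bases before its RefSeq start, chr17:49414883-49415132, minus strand. Both were taken from the RefSeq promoter table (GRCh38.p14), which matched 9 of the 10 genes and not YME1L1. Capitals mark CCGGAA (core of ETS factor sites), CCAAT and GGGCGG (GC box), on either strand.
PHB2-EMG1: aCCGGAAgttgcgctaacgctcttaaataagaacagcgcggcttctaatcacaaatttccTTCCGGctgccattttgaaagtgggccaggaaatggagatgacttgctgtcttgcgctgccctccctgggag
PHB1: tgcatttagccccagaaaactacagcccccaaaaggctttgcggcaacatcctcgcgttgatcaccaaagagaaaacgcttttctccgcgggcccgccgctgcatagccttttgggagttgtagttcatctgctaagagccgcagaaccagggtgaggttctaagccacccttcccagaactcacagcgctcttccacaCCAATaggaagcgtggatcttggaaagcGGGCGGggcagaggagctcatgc

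The stretch between PHB2 and EMG1 held CCGGAA 2 times and no CCAAT or GGGCGG. Both 300-base PHB2 windows, which reach beyond that stretch, held 1 GGGCGG each. The PHB1 stretch held 1 CCAAT and 1 GGGCGG and no CCGGAA. Its GGGCGG lies before the RefSeq start but within the GENCODE gene model. The stretches differ in length, at 132 and 250 bases, so their counts are not comparable with each other or with the shares below. The marked matches did not overlap each other. Over windows of 300 bases around each start (250 before and 50 after), CCGGAA occurred in 17.2% of 35116 RefSeq promoters, CCAAT in 34.6% and GGGCGG in 45.0%. Among the matched genes, STOML2 and PARL also had CCGGAA in their windows. OPA1 alone had CGCATGCG, the centre of NRF1 sites, which 2.02% of promoters held. G and C made up 55.0% of the PHB1 window and 57.0% of both PHB2 windows, against 76.0% for AFG3L2 and a median of 58.7% over all promoters. A match of letters does not show that a factor binds there.

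PHB2 was the one gene of the set with a large difference between si2 and NC. Its FPKM was 252 with NC and 44.4 with si2 in HT29 cells, and 313 with NC and 51.6 with si2 in LIM1215 cells. Both knockdown values lay far below both controls, and the 2 lines were close to each other under each siRNA. The si2 value was 17.6% of the NC value in HT29 (interval 16.5% to 18.8%) and 16.5% in LIM1215 (15.5% to 17.5%). On the log2 scale, with 1 added to each FPKM, the ratios were −2.48 and −2.58. An estimated 6306 fragments with NC and 1126 with si2 lay behind the HT29 values, and 6666 and 1230 behind the LIM1215 values. Among 12295 protein-coding genes, PHB2 had the 4th lowest ratio in HT29 and the 5th lowest in LIM1215. In bulk RNA, fewer cells that express a gene and less RNA per cell cannot be told apart.

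PHB1, which supplies the partner subunit of the same ring, stayed near its control level. PHB1 (ENSG00000167085; chromosome 17, 49404049 to 49414905, minus strand) had an FPKM of 348 with NC and 350.3 with si2 in HT29, and of 317 with NC and 295 with si2 in LIM1215. All 4 values were within a narrow range, and the knockdown library was not the lower one in HT29. The si2 value was 101% of the NC value in HT29 (interval 98.3% to 103%) and 92.8% in LIM1215 (90.2% to 95.5%). The log2 ratios were 0.01 and −0.11. The HT29 value changed sign to −0.069 with FPKM rescaled to a common sum, and was −0.025 with upper quartile scaling and −0.024 with centring on the median.

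The 2 prohibitin mRNAs thus no longer had similar levels. The PHB2 to PHB1 ratio of FPKM was 0.726 with NC and 0.127 with si2 in HT29 cells, and 0.986 with NC and 0.175 with si2 in LIM1215 cells. The ratio with si2 was 17.5% of that with NC in HT29 (interval 16.3% to 18.7%) and 17.7% in LIM1215 (16.6% to 19.0%). Intervals of such ratios were taken on the log scale from the estimated fragments of all 4 values. A ratio of 2 genes of 1 library does not depend on how that library was scaled. It shows unequal change of the subunits and not that PHB1 was unchanged. The summed FPKM of both genes was 599.9 with NC and 395 with si2 in HT29, and 630.5 and 346 in LIM1215. Copies of these genes held little signal: the single PHB2 pseudogene, PHB2P1, was listed at 0 in all libraries, 12 of 21 PHB1 pseudogenes were at 0 in all libraries, and the highest value of the rest was 1.81 (PHB1P9). A noncoding gene without a symbol overlaps exons of each prohibitin gene on the opposite strand, with a mean FPKM of 4.90 at PHB1 and 0.161 at PHB2.

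**Figure D1:**
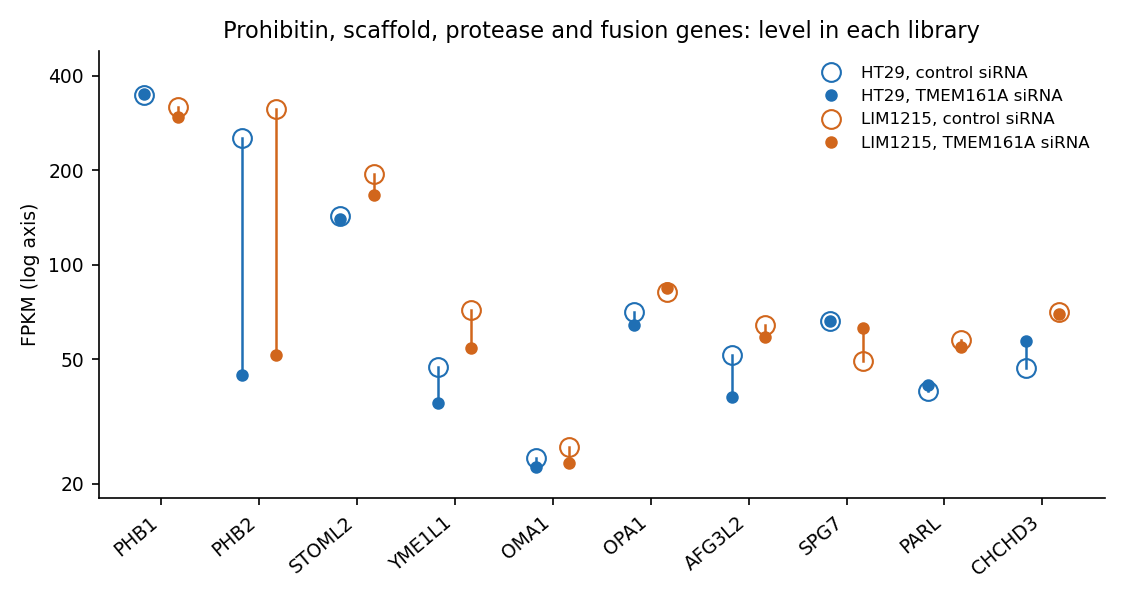
FPKM of the 10 genes (log axis) in each of the 4 libraries. Open rings are control siRNA and filled points TMEM161A siRNA, with HT29 in blue and LIM1215 in orange. PHB2 drops from 252 to 44.4 and from 313 to 51.6, while each ring and point of PHB1 lie close together between 295 and 350.3.

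Of the genes examined around PHB2, the coding ones did not share its low values. EMG1, across the stretch printed above, had an FPKM of 37.0 with NC and 43.4 with si2 in HT29, and of 38.3 with NC and 43.9 with si2 in LIM1215. In each line the knockdown library was the higher one, at 117% of control in HT29 (112% to 123%) and 115% in LIM1215 (110% to 120.2%). EMG1 exons overlap those of LPCAT3 on the opposite strand and of a coding gene without a symbol on the same strand, and how shared fragments were counted is not given in the sources used here. LPCAT3, a lysophospholipid acyltransferase gene 5404 bases from the PHB2 start, was at a log2 ratio of 0.03 in HT29 and of 0.28 in LIM1215. C1S, a complement protease gene, had an FPKM of 1.62 with NC and 3.18 with si2 in HT29, and of 1.10 and 1.22 in LIM1215. On the other side, MIR200CHG, a host gene of the miR-200c family, had log2 ratios of −0.43 and 0.02 on 16.9 to 28.1 estimated fragments. Its intervals, 35.4% to 136% of control in HT29 and 56.2% to 179% in LIM1215, were wide and included no change. MIR200C and MIR141 were listed at 0 throughout, so they show no difference in either direction.

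SCARNA12, a small Cajal body RNA gene, lies inside PHB2 on the same strand, outside the exons of its canonical transcript. Exons of other PHB2 transcripts overlap SCARNA12, so its fragments may include PHB2 RNA. Its FPKM was 13.4 with NC and 19.4 with si2 in HT29 cells, and 10.4 with NC and 5.99 with si2 in LIM1215 cells. These values rested on about 19.3, 28.0, 12.7 and 8.14 fragments. The intervals of 79.4% to 279% of control in HT29 and 19.7% to 143% in LIM1215 both included no change. SCARNA12 has 270 bases, fewer than the 500 required of genes in the depth estimate, so these fragments and intervals are rough. Within that limit, a difference was not detectable at this depth.

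**Figure D2:**
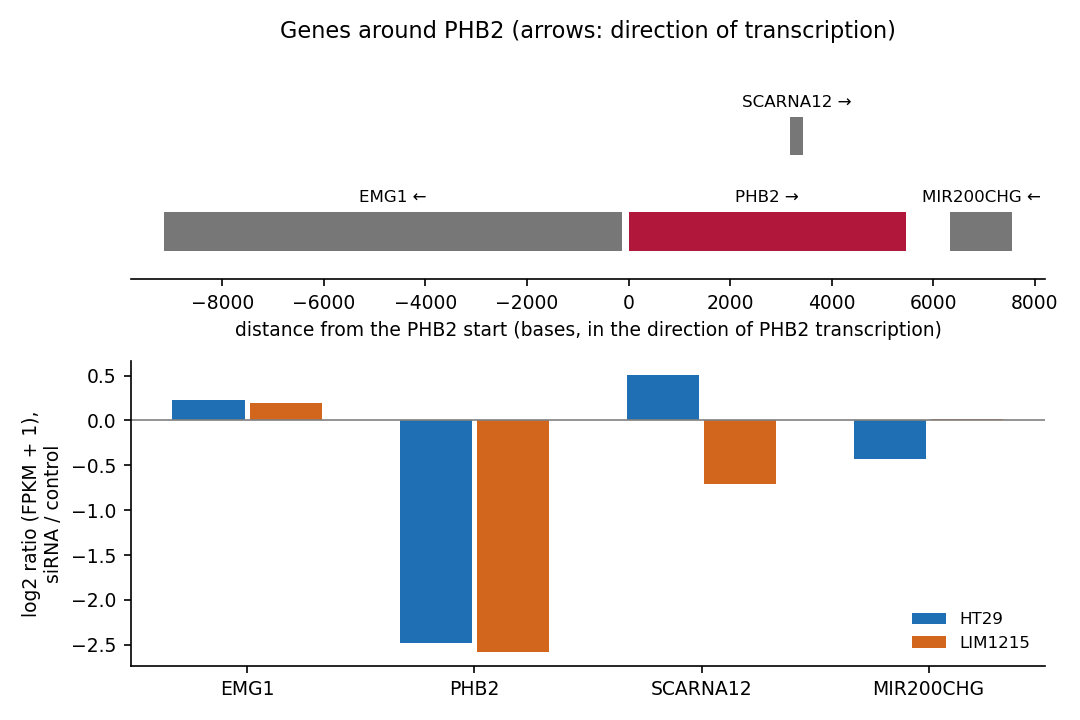
Top: gene models around PHB2 by distance from the PHB2 start in bases, counted in the direction of PHB2 transcription, with arrows for the direction of each gene. Bottom: log2 ratio of FPKM + 1, TMEM161A siRNA over control, in HT29 (blue) and LIM1215 (orange). The bars of PHB2 reach −2.48 and −2.58, while those of EMG1, 132 bases away, are at 0.22 and 0.19.

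The 9 other genes were then compared with all genes. In HT29, 1 of the 10 genes (PHB2) was lower by at least 2-fold, a step passed by 1.95% of the 14803 genes with a mean FPKM of at least 1, and none was higher, against 1.85% of all genes. In LIM1215 the same single gene was lower, against 1.78% of all genes, and none was higher, against 1.68%. A smaller step was set at 80% of control or less, or at least 25% above control, on the same scale of FPKM + 1. By it, 3 genes were lower in HT29 (PHB2, AFG3L2 and YME1L1), against 16.7% of all genes, and none was higher, against 20.9%. In LIM1215, 2 genes were lower by the smaller step (PHB2 and YME1L1), against 15.7% of all genes, and 1 was higher (SPG7), against 18.6%. Without PHB2, 2 of 9 genes were lower in HT29 and 1 of 9 was lower and 1 higher in LIM1215, which is near the background. The median log2 ratio of the 9 genes was −0.03 in HT29 and −0.11 in LIM1215, against 0.04 and 0.02 over all genes. All 10 genes passed the filter on low values in every comparison.

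**Figure D3:**
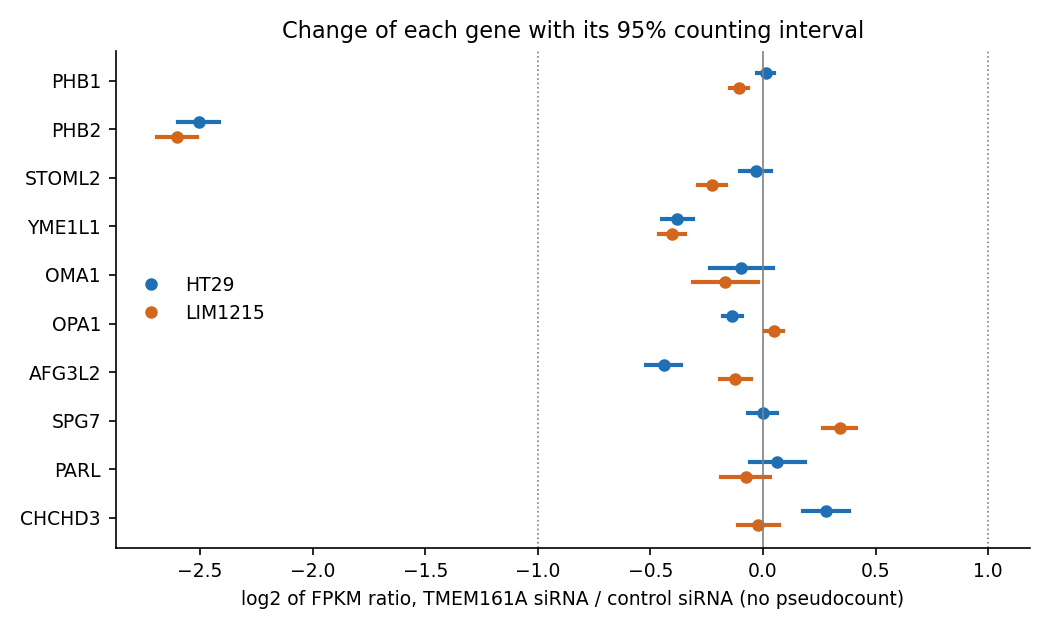
Log2 of the FPKM ratio, TMEM161A siRNA over control siRNA, without a pseudocount, for each of the 10 genes in HT29 (blue) and LIM1215 (orange). Bars are 95% counting intervals and dotted lines mark 2-fold. PHB2 lies beyond the left line in both lines and the other 9 genes lie between the lines.

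STOML2 encodes stomatin-like protein 2, another SPFH protein, which binds prohibitins and cardiolipin and gathers YME1L1 and PARL into 1 complex. STOML2 (ENSG00000165283; chromosome 9, 35099776 to 35103195, minus strand) had an FPKM of 143 with NC and 139.5 with si2 in HT29, and of 194 and 166 in LIM1215. The si2 value was 97.7% of the NC value in HT29 (interval 93.2% to 102%) and 85.5% in LIM1215 (81.8% to 89.4%). The interval included no change in HT29 and lay below it in LIM1215. The HT29 log2 ratio of −0.033 was −0.11 with FPKM rescaled to a common sum, outside that interval. Relative to PHB1, STOML2 was at 97.0% of its control ratio in HT29 and at 92.1% in LIM1215.

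YME1L1 encodes the i-AAA protease, whose active site faces the intermembrane space and which makes the balanced, constitutive cut of OPA1. It was the only gene beside PHB2 that was lower by the smaller step in both lines. YME1L1 (ENSG00000136758; chromosome 10, 27110111 to 27155266, minus strand) had an FPKM of 47.1 with NC and 36.2 with si2 in HT29, and of 71.5 and 54.0 in LIM1215. The si2 value was 76.8% of the NC value in HT29 (interval 73.3% to 80.5%) and 75.6% in LIM1215 (72.6% to 78.7%), so both intervals lay below no change and overlapped each other. The log2 ratios were −0.37 and −0.40, and they stayed between −0.45 and −0.34 under all alternatives tried. Exons of YME1L1 transcripts other than the canonical one overlap MASTL, a mitotic kinase gene on the opposite strand. MASTL was at 63.1% of control in HT29 and 60.0% in LIM1215, on an FPKM of at most 10.2, and its part in the YME1L1 values was not tested.

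OMA1 encodes the stress-activated protease that cuts OPA1 when the membrane potential or the prohibitin ring is lost, a step controlled on the protein. OMA1 (ENSG00000162600; chromosome 1, 58415384 to 58546802, minus strand) was the lowest of the 10 genes in every library, with an FPKM of 24.2 and 22.6 in HT29 and of 26.3 and 23.4 in LIM1215, control first. The si2 value was 93.6% of the NC value in HT29 (interval 84.9% to 103%) and 89.0% in LIM1215 (80.6% to 98.4%). Some OMA1 exons overlap DAB1, whose mean FPKM was 0.0117. The YME1L1 to OMA1 ratio of FPKM was 1.95 and 1.60 in HT29 and 2.72 and 2.31 in LIM1215. It was lower in the knockdown library of each line, at 82.1% of control (73.8% to 91.4%) and 84.9% (76.4% to 94.5%).

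AFG3L2 and SPG7 encode the subunits of the m-AAA protease, whose active site faces the matrix. AFG3L2 (ENSG00000141385; chromosome 18, 12328944 to 12377227, minus strand) had an FPKM of 51.4 with NC and 37.9 with si2 in HT29, and of 64.1 and 58.9 in LIM1215. It was at 73.7% of control in HT29 (69.8% to 77.7%) and at 91.8% in LIM1215 (87.6% to 96.3%). AFG3L2 exons overlap those of TUBB6, a tubulin gene on the opposite strand, which was at 129% of control in HT29 and 113% in LIM1215. SPG7 (ENSG00000197912; chromosome 16, 89490719 to 89557766, plus strand) had an FPKM of 66.1 and 66.0 in HT29 and of 49.4 and 62.6 in LIM1215. It was at 99.8% of control in HT29 (95.6% to 104%) and at 127% in LIM1215 (120.3% to 133%). The SPG7 value in LIM1215, a log2 ratio of 0.33, was just past the smaller step and fell short of it with a pseudocount of 5, with centring and with upper quartile scaling.

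AFG3L2 was thus the subunit that differed most in HT29, and SPG7 the one that differed most in LIM1215, but the balance between them moved alike. The AFG3L2 to SPG7 ratio of FPKM was 0.778 with NC and 0.574 with si2 in HT29 cells, and 1.30 with NC and 0.941 with si2 in LIM1215 cells. The ratio with si2 was 73.8% of that with NC in HT29 (interval 68.9% to 79.0%) and 72.5% in LIM1215 (67.7% to 77.7%). AFG3L2 can form the protease alone, whereas SPG7 works only together with AFG3L2.

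PARL encodes the rhomboid protease that cuts PINK1, PGAM5 and STARD7 within the membrane. PARL (ENSG00000175193; chromosome 3, 183829271 to 183884933, minus strand) had an FPKM of 39.5 with NC and 41.3 with si2 in HT29, and of 57.7 and 54.7 in LIM1215. It was at 104% of control in HT29 (96.1% to 114%) and 94.8% in LIM1215 (87.9% to 102%), and both intervals included no change. The HT29 log2 ratio of 0.06 turned to −0.017 with FPKM rescaled to a common sum. PARL exons overlap a coding gene without a symbol on the same strand.

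OPA1, the fusion GTPase whose cleavage the ring restrains, differed little in mRNA. OPA1 (ENSG00000198836; chromosome 3, 193593144 to 193697811, plus strand) had an FPKM of 70.6 with NC and 64.3 with si2 in HT29, and of 81.6 and 84.3 in LIM1215. It was at 91.0% of control in HT29 (88.4% to 93.7%) and at 103% in LIM1215 (100.5% to 106%). CHCHD3, a MICOS subunit that shapes cristae junctions and binds OPA1, is encoded on chromosome 7 (ENSG00000106554; 132784870 to 133082090, minus strand). It had an FPKM of 46.9 and 57.0 in HT29 and of 70.8 and 69.8 in LIM1215. It was at 122% of control in HT29 (113% to 130.5%) and at 98.6% in LIM1215 (92.4% to 105%). The cleaved and long forms of OPA1 are proteins, and gene-level FPKM does not measure them.

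The order of the 10 genes changed mainly through PHB2. In both control libraries PHB1, PHB2, STOML2 and OPA1 were the 4 highest genes, in that order, and OMA1 was the lowest. In the knockdown libraries PHB2 stood in the 6th place in HT29 and the 9th in LIM1215, while PHB1 and STOML2 led. Without replicates, neighbours in this order with similar values, such as YME1L1 at 47.1 and CHCHD3 at 46.9 in the HT29 control, cannot be ranked. Between the control libraries none of the 10 genes differed by 2-fold. By that step, 12% of all genes were higher and 7.42% lower in LIM1215. With 10 genes, this is not read as a result about them. The log2 differences between the controls, LIM1215 minus HT29, ran from −0.41 for SPG7 to 0.59 for YME1L1, and PHB2 was at 0.31.

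Another 6 lists, 52 genes in all, described the surroundings of the ring, and all 52 passed the filter on low values. At 2-fold, 1 of the 52 was lower in HT29 (IMMP1L), none was lower in LIM1215 and none was higher in either line. By the smaller step, 8 were lower and 8 higher in HT29, and 1 was lower and 8 higher in LIM1215. These counts hold for the main scaling only, since the 52 genes were not recomputed under the alternatives. Read against the backgrounds given above, the shares were near or below those of all genes. The single lists below hold 5 to 13 genes each, so their counts are not read as results about a list. The median log2 ratio of the 52 genes was −0.01 in HT29 and 0.01 in LIM1215.

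The other proteases held the largest difference of the 52 genes in HT29. IMMP1L and IMMP2L encode the catalytic subunits of the inner membrane peptidase, which removes sorting signals from imported proteins. IMMP1L had an FPKM of 28.4 with NC and 12.3 with si2 in HT29, and of 37.1 and 25.3 in LIM1215. IMMP2L had an FPKM of 19.0 and 26.4 in HT29 and of 12.2 and 18.4 in LIM1215. The knockdown library was thus lower for IMMP1L and higher for IMMP2L in each line. IMMP1L was at 43.3% of control in HT29 (35.4% to 53.2%) and 68.1% in LIM1215 (58.1% to 80.1%), and IMMP2L at 139% (126% to 152%) and 152% (134.5% to 172%). The IMMP1L to IMMP2L ratio was 1.49 with NC and 0.466 with si2 in HT29, and 3.05 and 1.37 in LIM1215. IMMP1L exons overlap DNAJC24 on the opposite strand, which was at 62.9% of control in HT29 and 64.4% in LIM1215, and its part in the IMMP1L values was not tested. ATP23, a further metalloprotease, had log2 ratios of −0.23 and −0.19. LACTB was the other gene higher by the smaller step in LIM1215, at 0.36 there and −0.026 in HT29 as log2 ratios. LACTB and the genes named below as remaining ones past the smaller step were added after their values were seen.

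Of 13 substrates and adaptors of the proteases, 2 were lower and 2 higher by the smaller step in HT29, and none was lower and 3 higher in LIM1215. By the same step, 16.7% of all genes were lower and 20.9% higher in HT29, and 15.7% and 18.6% in LIM1215. PINK1, a kinase that PARL cleaves and that marks damaged mitochondria, had an FPKM of 13.9 with NC and 20.2 with si2 in HT29, and of 19.7 and 30.6 in LIM1215. It was higher in the knockdown library of both lines, with log2 ratios of 0.51 and 0.61, and its exons overlap PINK1-AS on the opposite strand, whose log2 ratios were −0.69 and −0.21. SMDT1, which encodes the calcium uniporter regulator EMRE, a substrate of the m-AAA protease, had log2 ratios of 0.33 and 0.34. GHITM, which encodes an inner membrane protein that binds AFG3L2, had log2 ratios of −0.42 and −0.20. The remaining genes past the smaller step were MAIP1, lower in HT29 (−0.36, against −0.025 in LIM1215), and TRIAP1, higher in LIM1215 (0.59, against 0.0099 in HT29).

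Among 9 fusion and fission genes, 2 were lower and 1 higher by the smaller step in HT29, and 1 was higher in LIM1215. The shares of all genes were 16.7% lower and 20.9% higher in HT29, and 15.7% and 18.6% in LIM1215. MIEF1, an outer membrane receptor for the fission GTPase DRP1, was the listed gene higher in both lines. Its FPKM was 18.9 and 28.2 in HT29 and 24.2 and 31.9 in LIM1215. Its log2 ratios were 0.55 and 0.39. MTFP1, which promotes fission, was 1 of the 2 lower genes in HT29, at −0.35 there and −0.21 in LIM1215 as log2 ratios. The remaining one was SLC25A46, an outer membrane protein gene, at −0.45 in HT29 and 0.09 in LIM1215. MFF, a receptor for DRP1 that promotes fission, did not pass the step, with log2 ratios of −0.27 and −0.14.

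Among 10 genes of MICOS, the complex at cristae junctions, and of its outer membrane partners, 1 was lower and 3 higher by the smaller step in HT29, and 1 was higher in LIM1215. Over all genes, 16.7% were lower and 20.9% higher in HT29, and 15.7% and 18.6% in LIM1215. APOOL, a MICOS subunit that binds cardiolipin, was the gene higher in both lines, with an FPKM of 5.36 and 7.25 in HT29 and of 6.04 and 8.85 in LIM1215. The remaining genes past the step, each in HT29 alone, were the MICOS subunit gene MICOS10, lower (−0.33, against −0.07 in LIM1215), and DNAJC11 (0.37, against 0.08) and CHCHD6 (0.33, against 0.02), both higher. MTX2 had log2 ratios of −0.28 and −0.27, and MTX1 of −0.09 and −0.11, short of the step.

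Of 6 other SPFH family genes, FLOT2 was the only one past the smaller step in either line. That step was passed by 16.7% of all genes downward and 20.9% upward in HT29, and by 15.7% and 18.6% in LIM1215. FLOT2, a flotillin of the plasma membrane and endosomes, had an FPKM of 26.5 with NC and 40.8 with si2 in HT29, and of 45.7 and 58.9 in LIM1215, with log2 ratios of 0.61 and 0.36. FLOT1, its partner, had log2 ratios of −0.13 and −0.09, and ERLIN1, an endoplasmic reticulum member of the family, of −0.07 in both lines. Of the 9 genes of the TIM23 translocase, which imports proteins across the inner membrane, 2 were lower by the smaller step in HT29 and none was lower or higher by it in LIM1215. The lower genes were TIMM17A, a channel subunit that YME1L1 degrades as a protein, with log2 ratios of −0.36 and −0.20, and DNAJC19, of the import motor, with −0.35 in HT29 and 0.22 in LIM1215. TIMM50 had log2 ratios of 0.14 and 0.06, and PAM16 of 0.19 and 0.01.

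**Figure D4:**
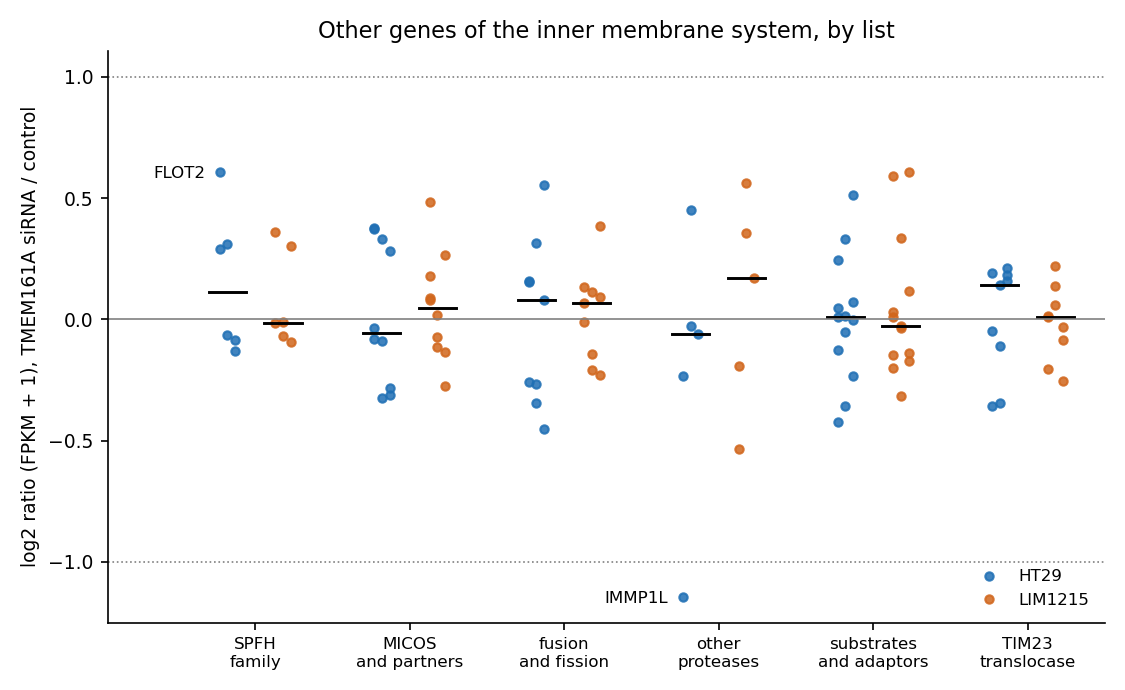
Log2 ratio of FPKM + 1, TMEM161A siRNA over control, for the 52 genes of 6 lists in HT29 (blue) and LIM1215 (orange). Each point is a gene, black bars are list medians and dotted lines mark 2-fold. IMMP1L in HT29, at −1.14, is the only point past a dotted line.

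The genes whose pattern was most like that of PHB2 came from other compartments. Likeness was the distance between genes in the 2 log2 ratios, over 5582 other protein-coding genes with a mean FPKM of at least 20, TMEM161A left out. The nearest was SQLE, an enzyme of cholesterol synthesis, at a distance of 0.15, with an FPKM of 27.3 and 3.95 in HT29 and of 56.6 and 7.70 in LIM1215. The next 4 were farther away, at 1.10 for SDF2L1, 1.13 for HSPA5, 1.17 for HERPUD1 and 1.43 for CRELD2, which are genes of protein folding and quality control in the endoplasmic reticulum. Their log2 ratios lay between −1.82 and −1.50 in HT29 and between −1.76 and −1.53 in LIM1215, so each differed less than PHB2 in both lines. None of the 9 other genes of the set was among them. This follows from their log2 ratios, all between −0.43 and 0.33, and is not a separate result. The measure rests on 2 ratios from 4 libraries.

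**Figure D5:**
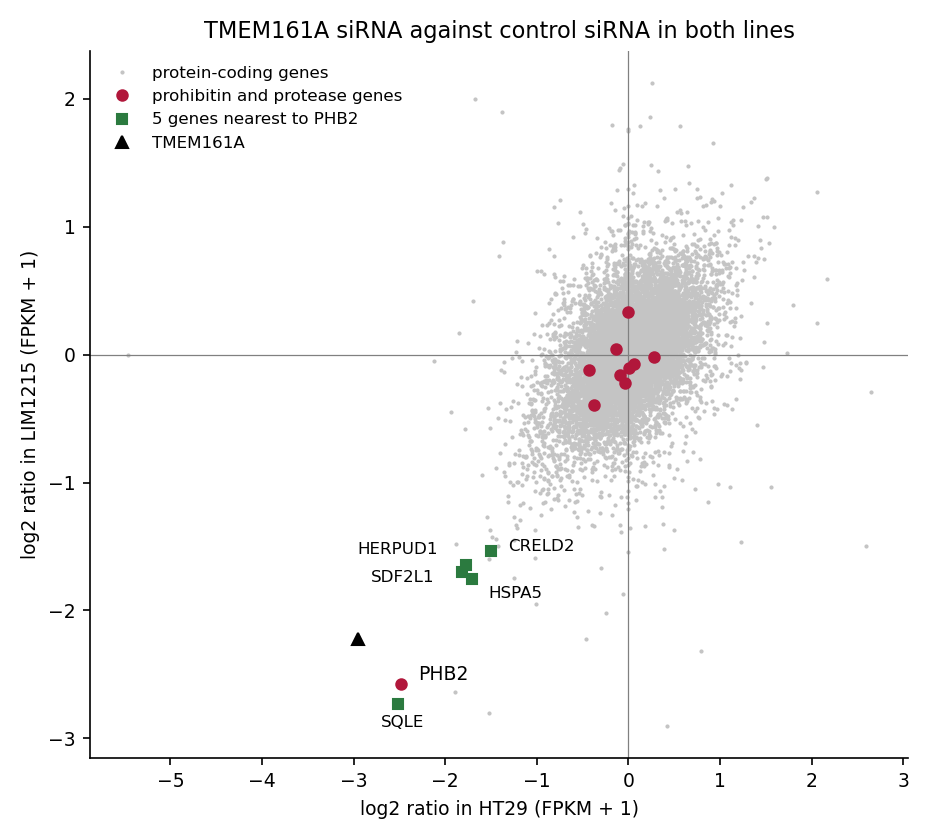
Log2 ratio of FPKM + 1 in HT29 (horizontal) and LIM1215 (vertical) for the 12295 protein-coding genes with a mean FPKM of at least 1 (grey). Red points are the 10 genes, green squares the 5 genes nearest to PHB2 and the black triangle TMEM161A. PHB2 lies at the lower left at −2.48 and −2.58 beside SQLE, and the other 9 red points lie within the grey cloud.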

How the data were processed

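RNA was measured in 4 libraries by stranded mRNA sequencing. The deposited values are FPKM, made by the authors. Per the submitters' processing notes, HISAT2 2.1.0, SAMtools 1.20, Cufflinks 2.2.1, Cuffdiff and GRCh38 were used, with no roles stated. The annotation and the treatment of strand and shared fragments are not given in the sources used here. Since FPKM scales to the whole library, a change in abundant genes shifts all others.

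Symbols, positions and lengths came from GENCODE release 44 (GRCh38), matched by identifier for 56550 of 60658. The measure was the log2 ratio of si2 to NC after adding a pseudocount of 1 to each FPKM, for 14803 genes with a mean FPKM of at least 1. Whole steps of low FPKM values (79.0% to 80.2% within 0.03 of a whole number) gave the fragments per library. The fit used genes with 1 transcript of at least 500 bases, and SCARNA12 and MIR200CHG are shorter. Simulated data made by the same formula returned the depth put in, which does not test the formula. Fragments of each gene were then taken from its canonical transcript length, so its interval depends on that length. Members and lists were chosen with earlier results of these data known. From each list, the 3 genes with ratios of equal sign and the largest smaller ratio of the 2 lines, and any past 2-fold, were named by rule. The others past the smaller step were added after their values were seen. 5 alternatives were tried per ratio: pseudocounts of 0.1 and 5, a common sum, centring and upper quartile scaling. Python 3.11.15, pandas 2.3.3 and scipy 1.17.1 were used.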

Additional observations from a re-analysis of the deposited data

Results flagged for a closer look

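Among the 10 genes, the neighbours of PHB2 and the listed genes past the smaller step, 10 genes had log2 ratios of opposite signs in HT29 and LIM1215. Several of these ratios were near 0. The share of all genes with opposite signs was not counted, so the count is not read as a result about these genes. With 1 library per group, the differences were not tested. The difference, LIM1215 minus HT29, was 0.34 for SPG7 (−0.0022 in HT29 and 0.33 in LIM1215) and −0.30 for CHCHD3 (0.28 and −0.02). It was 0.18 for OPA1 (−0.13 and 0.05), −0.14 for PARL (0.06 and −0.08) and −0.12 for PHB1 (0.01 and −0.11). For SPG7, CHCHD3 and PHB1 the counting interval of 1 line included no change, and for PARL those of both lines did. For OPA1 the intervals lay on opposite sides of no change, at 88.4% to 93.7% of control in HT29 and 100.5% to 106% in LIM1215. The LIM1215 side depended on the scaling. Its log2 ratio was 0.023 with centring and 0.034 with upper quartile scaling, and either shift takes the lower end of the interval below no change. SCARNA12, inside PHB2, differed by −1.21 (0.51 and −0.71), and both of its intervals included no change. The difference was 0.45 for MIR200CHG (−0.43 and 0.02), 0.55 for SLC25A46 (−0.45 and 0.09), 0.38 for LACTB (−0.026 and 0.36) and 0.56 for DNAJC19 (−0.35 and 0.22). The DNAJC19 intervals also lay on opposite sides of no change, at 69.1% to 87.6% of control in HT29 and 103.6% to 132.9% in LIM1215. DNAJC19 was not recomputed under other scalings. For SLC25A46 and LACTB the interval of 1 line included no change, and for MIR200CHG those of both lines did.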

How the results depend on the processing

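Of 186 recomputed values, 158 stayed within their counting interval or within 1.5 times the count, 28 moved, and none of the values past 2-fold changed sign. PHB2 was past 2-fold in both lines under each alternative, with HT29 values of −2.56 to −2.38 and LIM1215 values of −2.60 to −2.49. With a pseudocount of 5, PHB2 was −2.38 in HT29 and its change relative to PHB1 −2.39. With FPKM rescaled to a common sum, PHB1 in HT29 was −0.069 and the median of the 9 other genes −0.11, and upper quartile scaling gave PHB1 −0.025. The common sum also moved other HT29 values past their counting intervals. These were STOML2 (−0.11), YME1L1 (−0.45), OPA1 (−0.21), AFG3L2 (−0.51) and SPG7 (−0.082). The rescaling moved the median log2 ratio of all HT29 genes from 0.035 to −0.017, and the median shift of single genes was −0.075. The count of genes higher by the smaller step in LIM1215 was 0 in place of 1 with a pseudocount of 5, centring or upper quartile scaling, which concerns SPG7. Among protein-coding genes alone the 2-fold background was 1.26% lower and 0.96% higher in HT29, and 0.887% and 0.756% in LIM1215. No replicate could be left out, since each group had 1 library, and a difference between single cultures cannot be told apart from one between siRNAs. A fit blocked by line, with 1 residual degree of freedom, was not run.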
